A study of Mus musculus with 30 samples.

Results

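The endoplasmic reticulum (ER) folds secreted and membrane proteins, and its folding and quality control genes were followed here in 3T3-L1 cells, mouse fibroblasts able to become adipocytes in culture. The set holds 39 genes, chosen by name: 10 chaperones and cochaperones, 2 lectin chaperones, 7 genes of oxidative folding and proline isomerisation, 4 genes for the 3 stress sensors and the effector Xbp1, 10 genes of ER-associated degradation (ERAD) and 6 genes of the translocon. All 39 were found among the 57490 gene rows of the deposited table, and 38 of them reached the level needed for testing, as did 14626 genes in all. The exception was Derl3, a degradation gene of secretory cells, which was between 0 and 0.245 FPKM (fragments scaled by transcript length and by the library's total) in every library.

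There were 6 groups of 5 cultures. Cultures had been given quizalofop-p-ethyl (QpE), a herbicide, at 50 µM and were sampled at 6 h, 24 h and 12 days, and control cultures, for which the labels give no vehicle, were sampled at the same times. Dexamethasone cultures, which the protocol names as a positive control, are not among the groups. All cultures, controls included, were in an adipogenic medium with insulin and the phosphodiesterase inhibitor IBMX but no stated glucocorticoid, and all came from 1 cell line used up to passage 10. By the protocol's schedule the last medium change comes earlier than 12 days, and the label is used as it stands. The labels number the cultures 1 to 5 within each group but do not say whether numbers stand for separate days, so p-values measure the spread between these cultures only. The estimated depth ran from 9.52 to 17.5 M read pairs per library.

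As background, polypeptides enter the ER through the SEC61 channel, are held by BiP (Hspa5) and its J-domain partners or by the lectins calnexin and calreticulin, and receive disulfide bonds from the protein disulfide isomerases. Unfolded protein is sensed by IRE1α (Ern1), PERK (Eif2ak3) and ATF6. IRE1α splices the mRNA of Xbp1, and XBP1 and ATF6 then act on promoters of chaperone and ERAD genes. Proteins that fail to fold are drawn back to the cytosol by the SEL1L and HRD1 (Syvn1) complex with the Derlin and EDEM proteins. Fat cells secrete adiponectin and other proteins through this route, and XBP1 is known to be needed for adipogenesis of 3T3-L1 cells. The deposited transcripts of Xbp1 did not separate its spliced from its unspliced form, so splicing was not measured.

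The best known promoter motif of these genes is the ER stress response element (ERSE), with the letters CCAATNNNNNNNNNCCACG, and its variant ERSE-II has the letters ATTGGNCCACG. Both hold CCACG, so the 2 searches share those letters. RefSeq promoter windows of build GRCm38.p6, from 250 bases before to 50 bases after each start, were found for 32 of the 39 members and were read on both strands for exact matches. ERSE was present in 10 of these 32 members (31.2%) and in 0.137% of 27025 genes with a window. ERSE-II was present in 2 of the 32 (6.25%) and in 0.0444% of genes. The UPRE core TGACGTGG and the CRE TGACGTCA matched none of the 32, against 0.714% and 2.03% of genes, and the letters TGATGNAA matched Herpud1 alone of the 32, against 4.51% of genes. A match is a description of the letters, and no match says only that these letters are not in the window. The matches are shown, with their GRCm38.p6 coordinates, because the 12 day results are set against them further on. Capitals mark the fixed letters of each motif, read 5′ to 3′ on the strand that carries it. All lie before the RefSeq start used for the window except that of Dnajb11. The match of Hspa5 lies within the span of its deposited transcripts, which begins at chr2:34771970.

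Hspa5, chr2:34772025-34772043: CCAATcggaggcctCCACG
Hsp90b1, chr10:86705533-86705551: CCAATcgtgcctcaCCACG
Hsp90b1, chr10:86705638-86705656: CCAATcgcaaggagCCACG
Calr, chr8:84847075-84847093: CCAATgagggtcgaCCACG
Canx, chr11:50325800-50325818: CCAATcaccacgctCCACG
Pdia6, chr12:17266491-17266509: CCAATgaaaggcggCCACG
Dnajc3, chr14:118937827-118937845: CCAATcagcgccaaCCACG
Creld2, chr15:88819520-88819538: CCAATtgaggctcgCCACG
Syvn1, chr19:6046532-6046550: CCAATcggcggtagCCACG
Ero1lb, chr13:12565682-12565700: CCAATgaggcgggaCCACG
Derl3, chr10:75893242-75893260: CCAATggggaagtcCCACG
Herpud1 ERSE-II, chr8:94386377-94386387: ATTGGgCCACG
Dnajb11 ERSE-II, chr16:22857852-22857862: ATTGGcCCACG

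The 250 bases upstream of Herpud1 and of Sel1l are given in full, because both genes belong to ERAD and one holds a match and the other none. Herpud1 lies on the plus strand of chromosome 8 (chr8:94386179-94386428), with its ERSE-II in capitals, and Sel1l on the minus strand of chromosome 12 (chr12:91849158-91849407), each written along its own strand in build GRCm38.p6.
Herpud1 upstream: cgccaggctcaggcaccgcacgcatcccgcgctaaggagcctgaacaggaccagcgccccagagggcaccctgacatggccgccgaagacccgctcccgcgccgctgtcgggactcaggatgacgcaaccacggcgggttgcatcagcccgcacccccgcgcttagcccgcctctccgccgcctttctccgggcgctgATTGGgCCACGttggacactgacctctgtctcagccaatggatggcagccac
Sel1l upstream: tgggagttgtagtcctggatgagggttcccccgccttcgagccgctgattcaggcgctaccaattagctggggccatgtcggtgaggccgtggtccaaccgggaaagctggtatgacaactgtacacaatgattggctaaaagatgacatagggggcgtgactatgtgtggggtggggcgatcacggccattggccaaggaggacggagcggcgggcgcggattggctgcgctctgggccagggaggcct

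The members spanned a wide range of levels, on the FPKM scale, which is per length of transcript. Calr, the calcium-binding lectin calreticulin, was the highest, with a mean of 583 FPKM over the 30 libraries. It was followed by Hspa5 at 342 FPKM and P4hb (protein disulfide isomerase) at 340.3 FPKM. The mean of P4hb was above that of Hspa5 in all 4 groups at 6 h and 24 h and below it in both groups at 12 days. Next were Hsp90b1 (GRP94) at 277 FPKM and Pdia3 (ERp57) at 249 FPKM. The sensors were far lower, with means of 13.4 FPKM for Eif2ak3, 8.83 FPKM for Atf6 and 5.08 FPKM for Ern1, while Xbp1 stood at 50.1 FPKM. Ero1lb, an oxidase that feeds disulfide isomerases, was the lowest of those tested at 2.05 FPKM. Levels of Hsp90b1, Pdia4 and Manf can include reads of genes annotated in the same assembled locus.

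**Figure D1:**
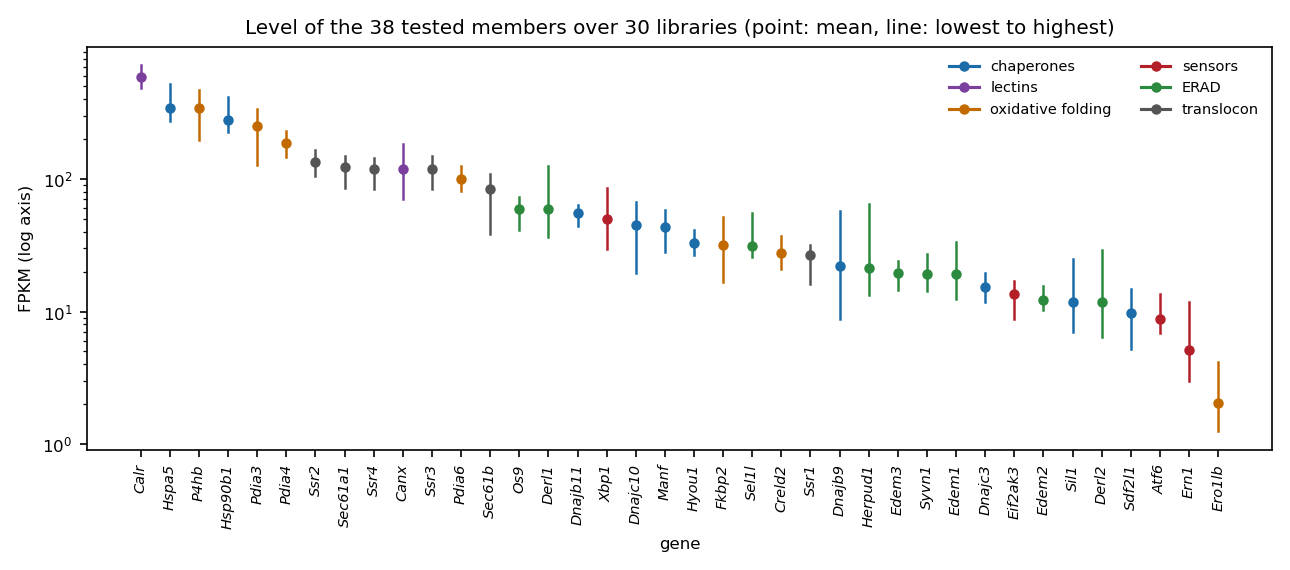
Level of each of the 38 tested members, in FPKM on a log axis, ordered from highest to lowest; points are means over 30 libraries, lines run from the lowest to the highest library, and colours give the role. The lectin Calr leads at 583 FPKM, and the sensors Atf6 and Ern1 lie near the low end with Ero1lb.

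After 12 days QpE cultures had higher levels of 5 members: Dnajb9, Sil1, Sel1l, Xbp1 and Atf6. They rose 1.34-fold (Atf6) to 1.60-fold (Dnajb9) on the FPKM + 1 scale, no member fell, and the high-abundance chaperones, lectins and disulfide isomerases did not pass the test. Rises and falls are those with an adjusted p under 0.05 in limma (two-sided, Benjamini-Hochberg over all 14626 genes, n = 5 cultures a group). The 5 rises and 0 falls stand against a background of 12.2% of all genes called, 5.06% higher and 7.17% lower. Of the 38 members 26 had a difference above 0 and 12 below 0, with a median log2 difference of 0.146 for the members and -0.002 for all genes. Rescaling each library to the same FPKM total left the same 5 called and called Os9 and Ssr2 lower. Of all 14626 genes 457 were then called higher and 1327 lower. Of these calls 25.6% were higher, against 41.4% as deposited. In bulk RNA of a culture, fewer cells of a type and less RNA per cell cannot be told apart.

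Among the sensors and their effector, Xbp1 and Atf6 rose. Xbp1 (chr11:5520659-5525893, build GRCm38), the transcription factor downstream of IRE1α, had 64.5, 64.4, 84.95, 73.3 and 70.2 FPKM in QpE cultures, against 52.1, 50.7, 51.02, 46.97 and 55.7 FPKM in control cultures, given for replicates 1 to 5 in order here and below. All QpE cultures were above all controls, and the log2 difference was 0.47 ± 0.09 (SE, limma adjusted p = 0.0156). Atf6 (chr1:170704674-170867771), a membrane-bound factor cleaved in the Golgi under stress, had 12.2, 10.99, 12.4, 13.1 and 13.5 FPKM in QpE cultures, against 9.48, 9.60, 9.36, 8.36 and 8.51 FPKM in control cultures. The groups did not overlap, with a log2 difference of 0.42 ± 0.09 (limma adjusted p = 0.0169). Unnamed assembled transcripts carried 51.6% of the Atf6 level, and its 1.54 log2 difference in named transcripts alone was not called (limma adjusted p = 0.402). Ern1, which encodes IRE1α, had 6.43, 4.60, 7.88, 6.90 and 11.8 FPKM in QpE cultures, against 4.24, 4.04, 6.10, 4.64 and 3.66 FPKM in control cultures. Its groups overlapped, with replicate 5 of QpE the highest, and it was not called (log2 difference 0.58 ± 0.21, limma adjusted p = 0.0936, but 0.0399 without replicate 2 of QpE). Eif2ak3, which encodes PERK, had a log2 difference of -0.09 ± 0.10, with a 95% interval of -0.31 to 0.13.

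Of the 10 chaperones, 2 rose. Both encode partners of BiP, as do others of the 10 that were not called. Dnajb9 (chr12:44205559-44210326), or ERdj4, a J-domain protein that binds IRE1α and aids degradation, had 57.4, 49.6, 37.00, 39.6 and 47.2 FPKM in QpE cultures, against 32.02, 32.1, 26.7, 22.3 and 28.9 FPKM in control cultures. Every QpE culture exceeded every control, and the log2 difference of 0.68 ± 0.14 was the largest of any member (limma adjusted p = 0.0173). Sil1 (chr18:35266400-35498925), a nucleotide exchange factor of BiP, had 19.6, 16.1, 23.7, 17.7 and 24.7 FPKM in QpE cultures, against 11.6, 12.04, 14.3, 13.5 and 13.6 FPKM in control cultures. The lowest QpE culture lay above the highest control, with a log2 difference of 0.60 ± 0.13 (limma adjusted p = 0.0183). BiP itself, Hspa5 (chr2:34771970-34777547), had 486, 488, 403, 429 and 524 FPKM in QpE cultures, against 398, 397, 297, 291 and 362 FPKM in control cultures. Its groups did not overlap either, but it missed the threshold (log2 difference 0.42 ± 0.13, limma adjusted p = 0.0642), and it was called with the replicate number as a block (limma adjusted p = 0.025).

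The other chaperones were not called. Hyou1 (GRP170) had a log2 difference of 0.22 ± 0.08 and Dnajb11 (ERdj3) one of 0.15 ± 0.07, and for both all QpE cultures were above all controls. Hsp90b1 had a difference of 0.20 ± 0.11, and the J-domain reductase Dnajc10 (ERdj5) one of -0.24 ± 0.17, with overlapping groups. Sdf2l1, which works with ERdj3, had 12.96, 12.7, 5.87, 5.23 and 14.8 FPKM in QpE cultures, against 10.6, 9.30, 6.11, 7.04 and 10.7 FPKM in control cultures. Replicates 3 and 4 were the lowest in both groups, and the interval of its difference ran from -0.50 to 0.77 on the log2 scale. Manf, a secreted BiP cofactor, differed by 0.01 ± 0.16, and Dnajc3 by -0.11 ± 0.08. The lectins Calr and Canx (calnexin) differed by 0.19 ± 0.11 and 0.18 ± 0.13 and were not called by limma, with neither at an unadjusted p under 0.05.

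Limma called none of the 7 oxidative folding genes (1 at an unadjusted p under 0.05, Fkbp2), and their intervals do not show that they were equal. Ero1lb had the largest log2 difference at 0.42 ± 0.22, followed by Fkbp2, an ER proline isomerase, at 0.35 ± 0.16, and Pdia6 at 0.23 ± 0.11. Fkbp2 was called with the replicate block (limma adjusted p = 0.0263, against 0.175 without it). P4hb, Creld2 and Pdia4 differed by 0.12, 0.12 and 0.12. Pdia3, which works with the lectins, had the only difference below 0 among the 7, at -0.23 ± 0.15.

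In ERAD, 1 of 9 tested genes rose. Sel1l (chr12:91806043-91849157), the scaffold of the HRD1 ligase, had 39.95, 37.7, 44.6, 47.2 and 55.4 FPKM in QpE cultures, against 33.3, 30.98, 33.3, 31.8 and 25.6 FPKM in control cultures. The groups did not overlap, with a log2 difference of 0.52 ± 0.12 (limma adjusted p = 0.0225). It was not called without control replicate 2 (limma adjusted p = 0.0522), without control replicate 5 (0.0526) or with no filter on low values (0.0539). In the most abundant Sel1l transcript, which carried 78.4% of its level, the difference was 0.59 and was also not called (0.22). Derl1, a channel protein of retrotranslocation, had 113, 102, 87.8, 77.3 and 124 FPKM in QpE cultures, against 82.3, 82.8, 65.5, 54.5 and 79.5 FPKM in control cultures. QpE was higher in 5 of 5 same-numbered pairs, but the groups overlapped and it was not called without the block (log2 difference 0.46 ± 0.16, limma adjusted p = 0.0863, and 0.0182 with the block). Leaving out replicate 4 of QpE also called it (limma adjusted p = 0.0489). Herpud1, a membrane adaptor of HRD1, had 26.6, 30.05, 34.02, 28.98 and 64.9 FPKM in QpE cultures, against 21.3, 21.8, 26.98, 25.8 and 26.3 FPKM in control cultures. Replicate 5 of QpE stood far above the others, and the difference of 0.50 ± 0.22 was not called (limma adjusted p = 0.159).

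Os9, a lectin that hands misfolded glycoproteins to the HRD1 complex, differed in the other direction, with 44.1, 46.8, 45.04, 48.9 and 41.5 FPKM in QpE cultures, against 49.9, 54.6, 59.8, 64.3 and 51.8 FPKM in control cultures. All QpE cultures were below all controls, yet it missed the threshold (log2 difference -0.30 ± 0.09, limma adjusted p = 0.0529, and 0.0286 with the block). Syvn1, the HRD1 ligase itself, differed by -0.04 ± 0.18, and the mannosidase-like Edem1, Edem2 and Edem3 by 0.25, -0.13 and 0.06. None of these was called.

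Limma called no translocon gene (1 of 6 at an unadjusted p under 0.05, Ssr2), and 5 of the 6 had differences below 0. Ssr2, a subunit of the translocon-associated protein complex, had 119.7, 121.0, 108, 105 and 107 FPKM in QpE cultures, against 134, 136, 133, 127 and 137 FPKM in control cultures. The groups did not overlap (log2 difference -0.25 ± 0.08, limma adjusted p = 0.0543, and 0.0436 with the block). Sec61b and Sec61a1, subunits of the channel, differed by -0.28 ± 0.17 and -0.10 ± 0.08, and Ssr1, Ssr3 and Ssr4 by -0.14, 0.07 and -0.04. Median log2 differences by role were 0.441 for the sensors and their effector, 0.249 for ERAD, 0.185 for the lectins, 0.180 for the chaperones, 0.124 for oxidative folding and -0.115 for the translocon.

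**Figure D2:**
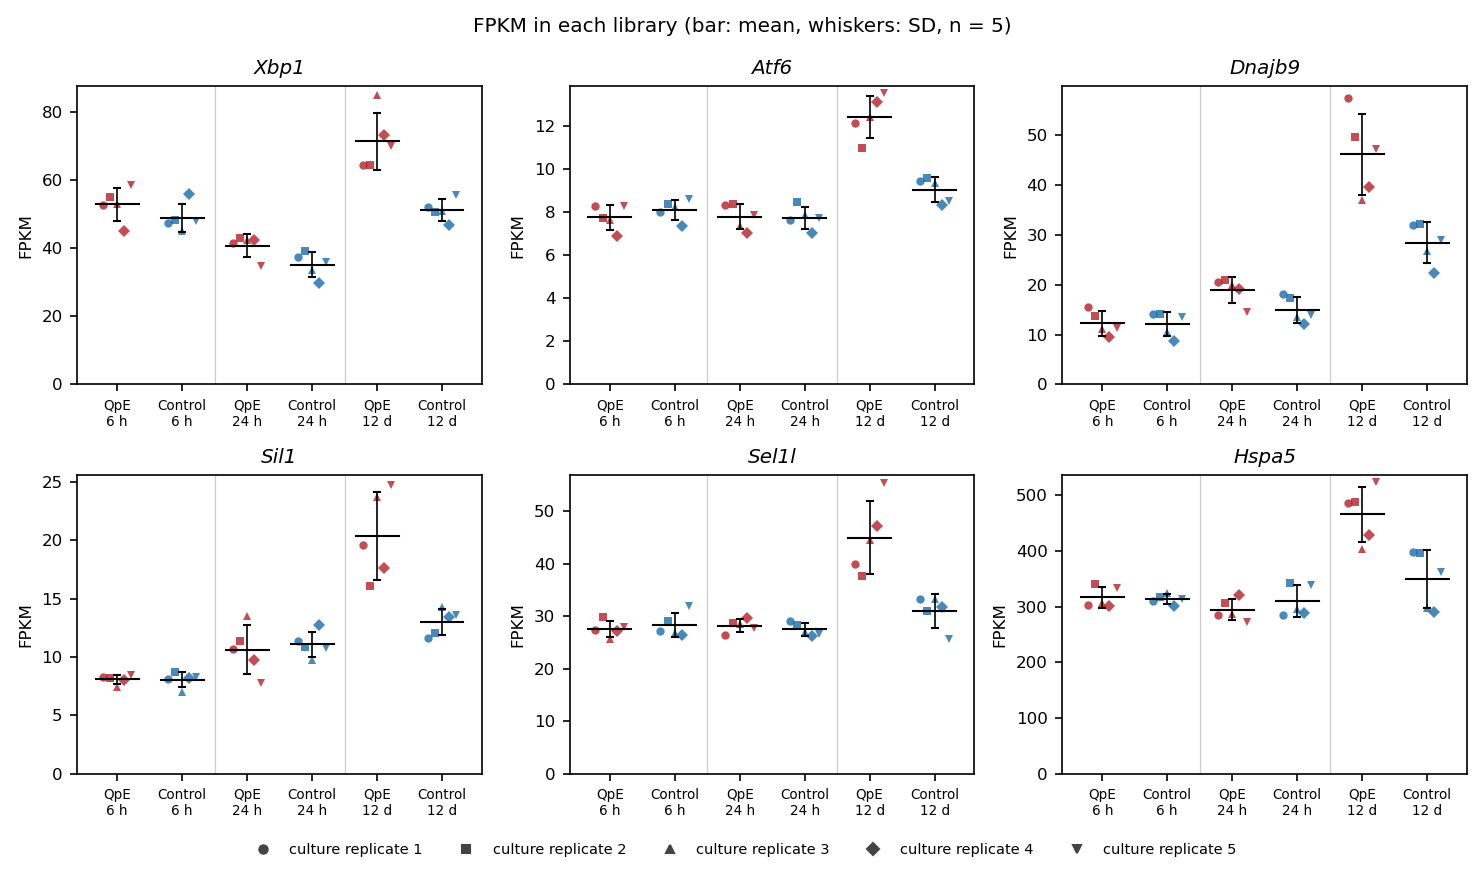
FPKM in each library of the 5 members called at 12 days and of Hspa5, by treatment and time, with a symbol per culture replicate; horizontal bars are means and whiskers SD (n = 5). At 12 days the QpE cultures lie above the controls for all 6 genes, while at 6 h and 24 h the groups overlap.

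Counting groups that did not overlap, 8 members had all QpE cultures above all controls at 12 days (Hspa5, Hyou1, Sil1, Dnajb9, Dnajb11, Xbp1, Atf6 and Sel1l), against 6% of all genes, and 2 had them below (Os9 and Ssr2), against 8.26% of all genes. At an unadjusted p under 0.05 there were 14 of 38 members (36.8%), against 27.8% of all genes. With the replicate number as a block, 8 members were called higher (background 8.77%) and 2 lower (background 10.3%). The 8 were the 5 above with Derl1, Hspa5 and Fkbp2. A fit of all 30 libraries, which shares 1 spread over all groups, called 13 higher (background 11.9%) and 2 lower (background 14.2%).

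Set against the promoter letters, none of the 9 tested members with an ERSE was called at 12 days in the fit without the block, a count too small to set apart from the 12.2% of all genes called. With the block Hspa5 was called, and the fit of all 30 libraries called Hspa5 and Pdia6. The ERSE-II members Herpud1 and Dnajb11 were called neither without the block nor with it. Both were called higher in the fit of all 30 libraries, where 11.9% of all genes were. Log2 differences of the 9 tested ERSE members ran from -0.11 for Dnajc3, an inhibitor of PERK, to 0.42 for Hspa5 and 0.42 for Ero1lb. Of the 5 members that rose, Xbp1, Sel1l and Dnajb9 had a window, and neither ERSE nor ERSE-II matched in them. The 250 bases before the RefSeq start of Dnajb9 (chr12:44210069-44210318, minus strand) lie within the span of its deposited transcripts (chr12:44205559-44210326). Bases before that span were thus not searched for Dnajb9. The windows are short and only exact letters were searched.

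**Figure D3:**
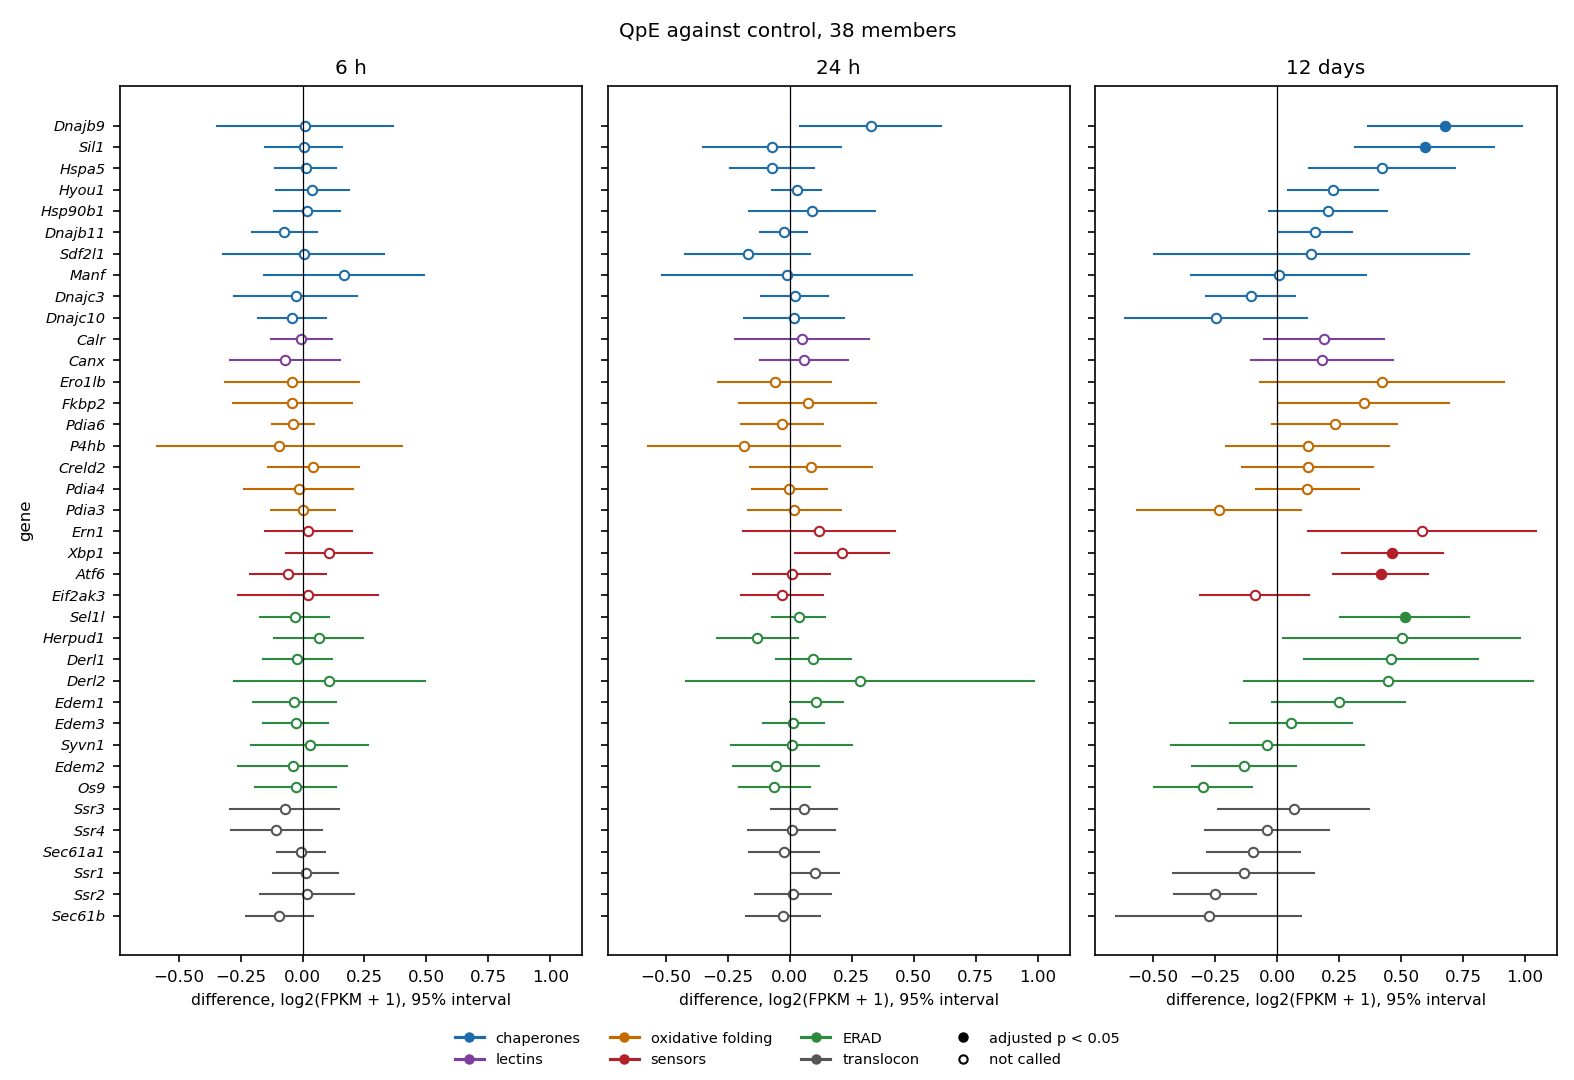
Difference between QpE and control for the 38 tested members at 6 h, 24 h and 12 days, on the log2(FPKM + 1) scale; points are limma estimates, lines 95% intervals, filled points are called at an adjusted p under 0.05, and colours give the role. Filled points appear at 12 days only, for Dnajb9, Sil1, Xbp1, Atf6 and Sel1l, all above 0.

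The cultures also differed in their cell markers at 12 days. The summed level of 6 adipocyte markers ran from 2971 to 7106 FPKM in QpE cultures and from 790.4 to 5190 FPKM in controls, while 6 fibroblast markers summed to 413 to 2826 FPKM in QpE cultures and 2908 to 4062 FPKM in controls. Limma called none of the 5 tested adipocyte markers (1 at an unadjusted p under 0.05, all 5 differences above 0), and Lep was under 1 FPKM in every library. Of the 6 fibroblast markers 3 fell (Dcn, Col1a1 and Pdgfra) and none rose. Markers of macrophages, endothelium and epithelium summed to at most 5.37, 0.623 and 2.59 FPKM in the 12 day libraries. Of the muscle markers Myod1 and Myog were at 0, and Des, the one tested, rose. The part of these markers in the 12 day result was not tested.

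Replicates 3 and 4 had the lowest adipocyte sums of both groups at 12 days, at 2971 and 3039 FPKM with QpE and 950.3 and 790.4 FPKM in controls. Within replicates 1, 2 and 5 the log2 differences were 0.71 for Dnajb9, 0.64 for Sil1, 0.54 for Sel1l, 0.32 for Xbp1 and 0.37 for Atf6, and only Dnajb9 was called (limma adjusted p = 0.0449). Within replicates 3 and 4 they were 0.63, 0.53, 0.48, 0.68 and 0.48 in the same order of genes, and Sel1l and Xbp1 were called (limma adjusted p = 0.0443 and 0.0454). These fits held only 3 and 2 cultures a group, and the share of all genes called in each is not given here, so nothing is drawn from these calls. Since all QpE cultures lie above all controls for these 5 genes, differences above 0 are fixed in any such set.

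At the earlier times no member was called. At 6 h limma called 0 of 38 members, against 0.00684% of all genes, and at an unadjusted p under 0.05 there were also 0 members, against 2.75% of all genes. Log2 differences lay between -0.11 for Ssr4 and 0.17 for Manf, with a median of -0.011 for the members and -0.014 for all genes. At 24 h limma called 0 of 38 members, against 0% of all genes, and 3 members had an unadjusted p under 0.05 (7.89%, against 8.79% of all genes), no more than the share of all genes. These were Dnajb9, Xbp1 and Ssr1, with log2 differences of 0.33 ± 0.13, 0.21 ± 0.08 and 0.10 ± 0.04. No member's groups were apart at 6 h (background 0.15% of genes higher and 0.212% lower) or at 24 h (background 0.841% higher and 1.07% lower).

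Dnajb9 at 24 h had 20.5, 20.9, 19.9, 19.1 and 14.5 FPKM in QpE cultures, against 18.2, 17.2, 13.5, 12.2 and 13.9 FPKM in control cultures. QpE was higher in 5 of 5 same-numbered pairs but the groups overlapped (limma adjusted p = 0.514). Xbp1 at 24 h had 41.6, 43.1, 42.5, 42.3 and 34.7 FPKM in QpE cultures, against 37.4, 39.1, 33.7, 29.7 and 36.02 FPKM in control cultures. QpE was higher in 4 of 5 pairs, and replicate 5 of QpE was the lowest of its group (limma adjusted p = 0.526). Hspa5, at 294 ± 19.1 FPKM in QpE cultures and 309.9 ± 28.4 FPKM in controls (SD, n = 5), differed by -0.07 ± 0.08, with a 95% interval of -0.24 to 0.10.

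Whether the effect of QpE at 12 days differed from that at 24 h was tested as an interaction in the 4 groups concerned. Limma called 0 of 38 members, against 0.957% of all genes (0.28% higher and 0.677% lower), and 9 members had an unadjusted p under 0.05 (23.7%, against 17.3% of all genes). The differences of differences nearest to the threshold were 0.41 ± 0.10 for Atf6 (limma adjusted p = 0.057), 0.48 ± 0.13 for Sel1l (limma adjusted p = 0.0619) and 0.67 ± 0.18 for Sil1 (limma adjusted p = 0.0676). The count over all genes depended on single libraries, since leaving out 1 of the 20 gave between 1 and 158 genes higher and between 2 and 353 lower, against 41 and 99 with all. Without replicate 2 of QpE at 12 days, where 1.08% of all genes were called higher and 2.41% lower, these 3 members were called (limma adjusted p = 0.0253, 0.0264 and 0.0308 in the same order). Sel1l was also called without replicate 1 of that group (0.0466, with 0.643% of genes higher) and Sil1 without replicate 4 (0.0488, with 0.903% higher). The differences of Dnajb9 and Xbp1 were 0.35 ± 0.20 and 0.26 ± 0.12. With all 20 libraries the test did not show that the effects at the 2 times differ. Median-ratio scaling called Atf6, with 79 of all 14626 genes called higher and 93 lower. Of these calls 45.9% were higher, against 29.3% as deposited. The fit of all 30 libraries called 4 members higher (Atf6, Hspa5, Sel1l and Sil1; background 1.83%) and none lower (background 3.22%).

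Some members also changed between times in control cultures. At 24 h, against 6 h, 5 members rose (background 10.5% of genes) and 5 fell (background 12%). Groups were apart for 6 members that were higher (background 7.97% of genes) and 4 that were lower (background 10.3%). The called share of the 38 members, 26.3% in both directions together, was near the 22.49% of all genes. For groups apart and higher the members' share was above that of all genes, and this difference was not tested. Over the same interval 2 of 6 fibroblast markers rose (Pdgfra and Dcn), and limma called none of the 5 tested adipocyte markers, of which 4 had an unadjusted p under 0.05 and all 5 a difference above 0. Their part in the members' differences was not tested. The largest rise was that of Fkbp2, with 35.2, 35.7, 29.9, 37.1 and 33.9 FPKM in the 24 h controls, against 20.9, 22.4, 22.7, 16.6 and 26.5 FPKM in the 6 h controls. Its groups were apart, with a log2 difference of 0.64 ± 0.11 (limma adjusted p = 0.00263). Sil1 had 11.4, 10.9, 9.72, 12.7 and 10.7 FPKM in the 24 h controls, against 8.11, 8.72, 6.96, 8.17 and 8.30 FPKM in the 6 h controls. Its groups were also apart (log2 difference 0.41 ± 0.08). Canx had 115, 113, 119, 125 and 112 FPKM in the 24 h controls, against 95.8, 96.4, 93.9, 100.2 and 102 FPKM in the 6 h controls, and Derl1 had 51.5, 48.5, 46.4, 43.2 and 51.8 FPKM in the 24 h controls, against 39.4, 42.7, 38.7, 38.7 and 42.5 FPKM in the 6 h controls. Neither gene's groups overlapped, and the differences were 0.26 and 0.25. Hsp90b1 had 282, 297, 314, 321 and 272 FPKM in the 24 h controls, against 269.6, 269, 252, 251 and 263 FPKM in the 6 h controls, a small rise of 0.19 ± 0.06 that 14 of 18 alternatives did not call. Those include leaving out any one of the 6 h controls or replicate 2, 3 or 4 of the 24 h controls (limma adjusted p between 0.0579 and 0.0988).

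The largest fall at 24 h was that of Xbp1, with 37.4, 39.1, 33.7, 29.7 and 36.02 FPKM in the 24 h controls, against 47.6, 48.5, 45.02, 55.97 and 47.9 FPKM in the 6 h controls. All 24 h controls were below all 6 h controls (log2 difference -0.47 ± 0.08, limma adjusted p = 0.00297). Hyou1 had 28.4, 28.7, 30.7, 28.9 and 30.2 FPKM in the 24 h controls, against 37.7, 35.8, 33.6, 34.8 and 35.1 FPKM in the 6 h controls, and Edem3 had 19.6, 18.7, 19.3, 17.1 and 18.97 FPKM in the 24 h controls, against 23.5, 21.5, 21.95, 21.05 and 23.9 FPKM in the 6 h controls. Both fell without overlap, by 0.26 and 0.25 on the log2 scale, but neither was called in named transcripts alone. The difference there was -0.08 for Hyou1 (limma adjusted p = 0.829) and -0.25 for Edem3 (0.09). Sec61b had 95.03, 87.8, 78.7, 86.7 and 92.3 FPKM in the 24 h controls, against 109, 99.5, 107, 101 and 94.9 FPKM in the 6 h controls. Sec61a1 had 135, 128, 117, 119 and 132 FPKM in the 24 h controls, against 144, 149.9, 144, 138 and 141 FPKM in the 6 h controls. The falls of these channel subunits were small, with log2 differences of -0.22 ± 0.06 and -0.18 ± 0.05, and the groups overlapped for Sec61b. Sec61b was not called without replicate 1 or 3 of the 6 h controls or replicate 2, 3 or 4 of the 24 h controls (limma adjusted p between 0.0553 and 0.0666). Sec61a1 was not called without replicate 1, 2 or 3 of the 6 h controls or replicate 3 or 4 of the 24 h controls (limma adjusted p between 0.0532 and 0.0643).

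At 12 days, against 24 h, 6 members rose in controls (background 13.1%) and 12 fell (background 20.9%). Groups were apart for 5 members that were higher (background 9.95%) and 12 that were lower (background 16.7%). The 6 that rose were Dnajb9, Edem1, Derl1, Xbp1, Herpud1 and Atf6, of which 3 belong to ERAD. Dnajb9 had 32.02, 32.1, 26.7, 22.3 and 28.9 FPKM in the 12 day controls, against 18.2, 17.2, 13.5, 12.2 and 13.9 FPKM in the 24 h controls, a log2 difference of 0.88 ± 0.13 with no overlap (limma adjusted p = 0.000642). Edem1, which pulls mannose-trimmed glycoproteins out of folding, had 27.6, 30.2, 25.2, 18.9 and 26.7 FPKM in the 12 day controls, against 15.7, 14.7, 15.2, 14.4 and 14.7 FPKM in the 24 h controls. Its groups were apart (log2 difference 0.73 ± 0.11). Derl1 had 82.3, 82.8, 65.5, 54.5 and 79.5 FPKM in the 12 day controls, against 51.5, 48.5, 46.4, 43.2 and 51.8 FPKM in the 24 h controls, Xbp1 had 52.1, 50.7, 51.02, 46.97 and 55.7 FPKM in the 12 day controls, against 37.4, 39.1, 33.7, 29.7 and 36.02 FPKM in the 24 h controls, and Herpud1 had 21.3, 21.8, 26.98, 25.8 and 26.3 FPKM in the 12 day controls, against 17.9, 17.5, 16.5, 17.8 and 16.997 FPKM in the 24 h controls. The groups of all 3 were apart, with log2 differences of 0.57, 0.54 and 0.47. Atf6 rose least, by 0.20 ± 0.07 with overlapping groups, and was called in 7 of 18 alternatives. Its call was lost without replicate 1, 3, 4 or 5 of the 24 h controls or replicate 1, 2 or 3 of the 12 day controls (limma adjusted p between 0.0762 and 0.0997), and in named transcripts alone its difference was -1.24 (0.368).

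The 12 members that fell in controls by 12 days were 5 of the translocon, 3 chaperones, 2 oxidative folding genes, Os9 and Eif2ak3. Dnajc10 had 30.7, 30.3, 35.8, 35.9 and 30.3 FPKM in the 12 day controls, against 49.9, 50.03, 55.2, 56.4 and 51.8 FPKM in the 24 h controls, the largest fall of any member (log2 difference -0.68 ± 0.07, limma adjusted p = 9.35e-05). Pdia3 had 204, 219.7, 220.0, 225 and 207 FPKM in the 12 day controls, against 268, 281, 279.7, 286 and 264 FPKM in the 24 h controls. Both genes' groups were apart, and the difference for Pdia3 was -0.36 ± 0.06. Of the 6 translocon genes 5 fell, among them Ssr3 with 108, 95.2, 109, 113 and 83.5 FPKM in the 12 day controls, against 137, 130.3, 126, 125 and 122 FPKM in the 24 h controls, and Ssr4 with 111, 113, 91.9, 104 and 104 FPKM in the 12 day controls, against 129.9, 141, 124, 143 and 117 FPKM in the 24 h controls. Their log2 differences were -0.34 and -0.32, close to -0.31 for Sec61b, -0.30 for Sec61a1 and -0.25 for Ssr1. Sec61b had 76.97, 75.04, 61.8, 68.6 and 71.5 FPKM in the 12 day controls, against 95.03, 87.8, 78.7, 86.7 and 92.3 FPKM in the 24 h controls. Hsp90b1 had 251, 249.8, 229, 243 and 230.1 FPKM in the 12 day controls, against 282, 297, 314, 321 and 272 FPKM in the 24 h controls, and Dnajb11 had 48.7, 48.7, 46.1, 47.8 and 44.2 FPKM in the 12 day controls, against 56.3, 58.6, 56.03, 58.9 and 61.1 FPKM in the 24 h controls. Both fell by 0.30 on the log2 scale with no overlap. Creld2, Os9 and Eif2ak3 were the other members that fell, with differences of -0.28, -0.28 and -0.24. Eif2ak3 was not called without replicate 2 (limma adjusted p = 0.0527) or replicate 5 (0.0537) of the 24 h controls, and Os9 was not called in its most abundant transcript, where its difference was 0.02 (0.929). With median-ratio scaling the member counts were 9 higher and 7 lower, beside 2370 higher and 2258 lower of all 14626 genes. Of the calls over all genes 51.2% were then higher, against 38.6% as deposited. Sec61b, Ssr1 and Ssr4 then lost their calls (limma adjusted p = 0.0502, 0.0562 and 0.0517), as did Os9 (0.0734) and Eif2ak3 (0.111). In their most abundant transcripts Ssr3 (0.0648) and Ssr4 (0.106) were not called. As deposited, the median log2 difference was -0.102 for the members and -0.085 for all genes.

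**Figure D4:**
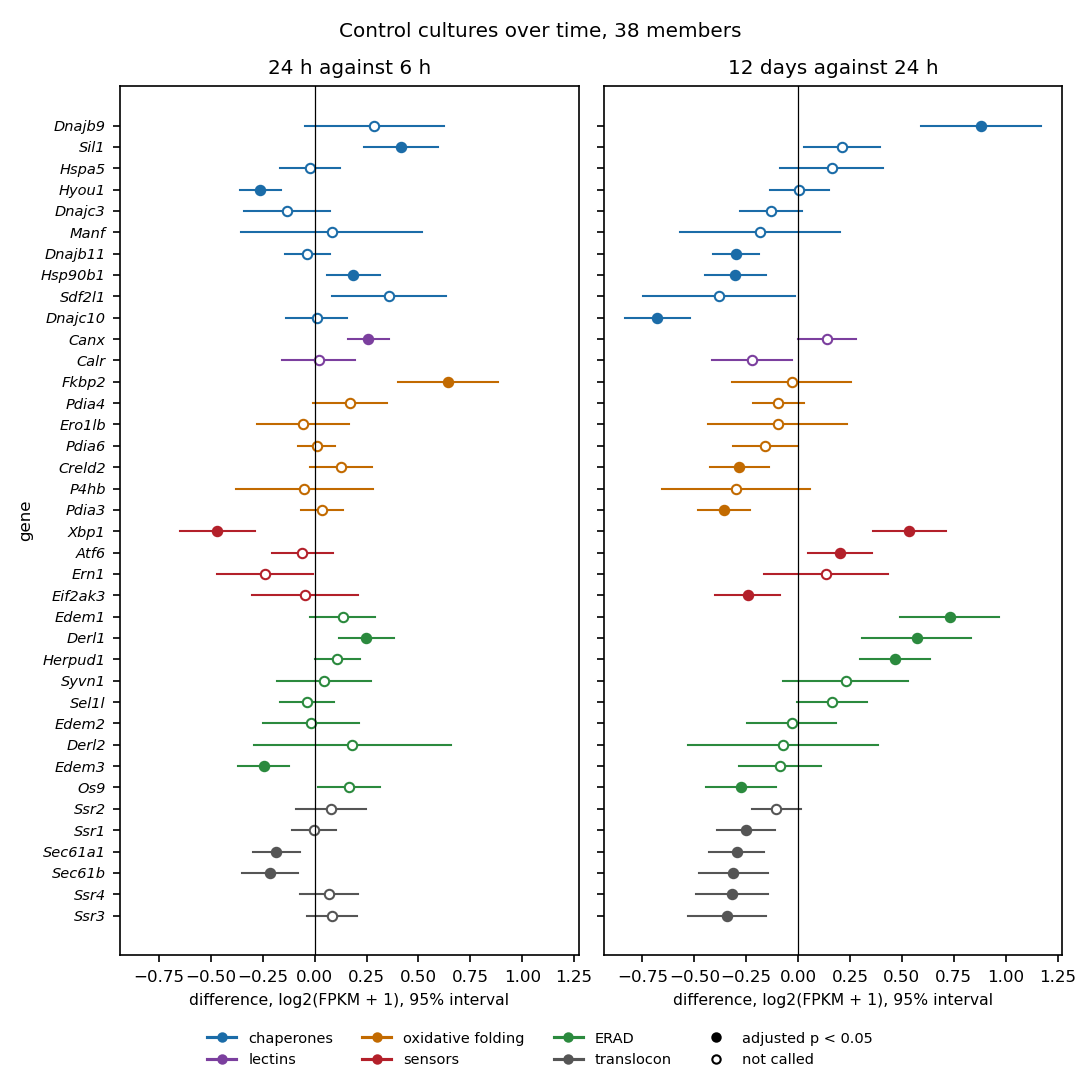
Differences between control cultures at 24 h against 6 h and at 12 days against 24 h for the 38 tested members, on the log2(FPKM + 1) scale; points are limma estimates, lines 95% intervals, filled points are called at an adjusted p under 0.05, and colours give the role. Dnajb9 stands highest at 12 days at 0.88 and Dnajc10 lowest at -0.68, and Xbp1 lies below 0 at 24 h and above 0 at 12 days.

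Set side by side, Dnajb9, Xbp1 and Atf6 rose with QpE at 12 days and in controls by 12 days, with log2 differences of 0.68, 0.47 and 0.42 for QpE and 0.88, 0.54 and 0.20 for the controls over time. Edem1 rose by 0.73 in controls and differed by 0.25 with QpE, which was not called. These 2 comparisons share the 12 day controls, so no likeness between them is drawn. Hspa5, the BiP gene, was called in neither, with differences of 0.42 and 0.16.

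Other genes of the pathway, from lists chosen for their function, were counted in the same fit at 12 days. The lists were made with earlier results of these data known, so their shares describe these lists only. Of 89 tested genes in 7 lists 9 rose (10.1%, against 5.06% of all genes) and 13 fell (14.6%, against 7.17%). Of 11 other stress response genes 3 rose with QpE and 1 fell. Creb3l1, an ER-bound factor linked to collagen secretion, averaged 16.04 ± 4.58 FPKM with QpE and 37.8 ± 4.63 FPKM in controls (SD, n = 5), a log2 difference of -1.23 ± 0.20. Trib3, a pseudokinase target of ATF4 and CHOP, averaged 131 ± 69.8 FPKM with QpE and 55.1 ± 5.09 FPKM in controls, a log2 difference of 1.11 ± 0.25. Ppp1r15a (GADD34), which guides dephosphorylation of eIF2α, differed by 1.07 ± 0.30. Each of these 3 differences was larger in size than that of any member.

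Of 13 other redox genes of the ER 2 rose and 5 fell. Ero1l, the main oxidase of disulfide isomerases and a gene of hypoxia and stress responses, averaged 280.4 ± 148 FPKM with QpE and 63.8 ± 11.2 FPKM in controls, a log2 difference of 2.00 ± 0.28. Qsox1, a sulfhydryl oxidase, rose by 0.87 ± 0.14, and the peroxidase Gpx7 differed by -0.95 ± 0.24. Of 7 other proline isomerases and collagen chaperones 4 fell and none rose. Fkbp14, Serpinh1 (the collagen chaperone HSP47) and Fkbp7 led, at -0.83 ± 0.19, -0.79 ± 0.20 and -0.71 ± 0.18.

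Fewer genes were called in the remaining lists. Of 11 oligosaccharyltransferase genes 1 fell (Ddost, -0.43 ± 0.10) and none rose. Of 16 other targeting genes 1 rose (Srpr, the signal recognition particle receptor, 0.37 ± 0.10). Of 15 other ERAD genes 2 rose, the ubiquitin-conjugating enzyme Ube2g2 by 0.58 ± 0.16 and Erlin1 by 0.52 ± 0.13. Of 16 ER exit genes 1 rose, the COPII GTPase Sar1b by 0.49 ± 0.11, and 2 fell, the retrieval receptor Kdelr3 and the COPII adaptor Sec24d, with differences of -0.56 ± 0.14 and -0.44 ± 0.09. At 6 h and 24 h limma called 0 of the 89 tested genes of these 7 lists, with 1 and 5 at an unadjusted p under 0.05.

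In control cultures 11 of the 89 rose (12.4%, against 13.1% of all genes) and 34 fell (38.2%, against 20.9%) at 12 days against 24 h. The stress response list held 5 of the rises, led by Trib3 at 2.45 ± 0.11, Ddit3 (CHOP) at 2.05 ± 0.27 and Ppp1r15a at 1.37 ± 0.24, and 4 of the falls. Of the redox genes 2 rose (Ero1l at 1.96 ± 0.16 and Qsox1 at 0.70 ± 0.08) and 7 fell, with Gpx8 the lowest at -0.74 ± 0.06. Of the proline isomerases and collagen chaperones 6 of 7 fell, of the oligosaccharyltransferase genes 5 of 11 and of the ER exit genes 6 of 16, and none of these 3 lists had a rise. Adipocyte markers rose over the same interval for all 5 tested, and 3 of 6 fibroblast markers fell; their part in these differences was not tested.

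Some members had single libraries far from their group, and their means follow those libraries. Herpud1 with QpE at 12 days is such a case, as given above. P4hb had 429.5, 466, 242, 248 and 428 FPKM in QpE cultures, against 433, 439, 386, 363 and 267 FPKM in control cultures at 6 h. At 12 days P4hb had 314, 343, 319, 315 and 299 FPKM in QpE cultures, against 316, 197, 318, 341 and 313 FPKM in control cultures. Replicates 3 and 4 of QpE at 6 h and replicate 2 of the 12 day controls were low, and no P4hb difference was called at any time. Derl2, a retrotranslocation gene, had 21.2, 9.49, 25.6, 10.03 and 10.3 FPKM in QpE cultures, against 9.20, 11.7, 9.62, 9.82 and 9.97 FPKM in control cultures at 12 days. Replicates 1 and 3 of QpE were high, the log2 difference of 0.45 ± 0.26 was not called (limma adjusted p = 0.301), and one unnamed transcript of its locus averaged 7.71 FPKM with QpE and was at 0 in controls there.

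**Figure D5:**
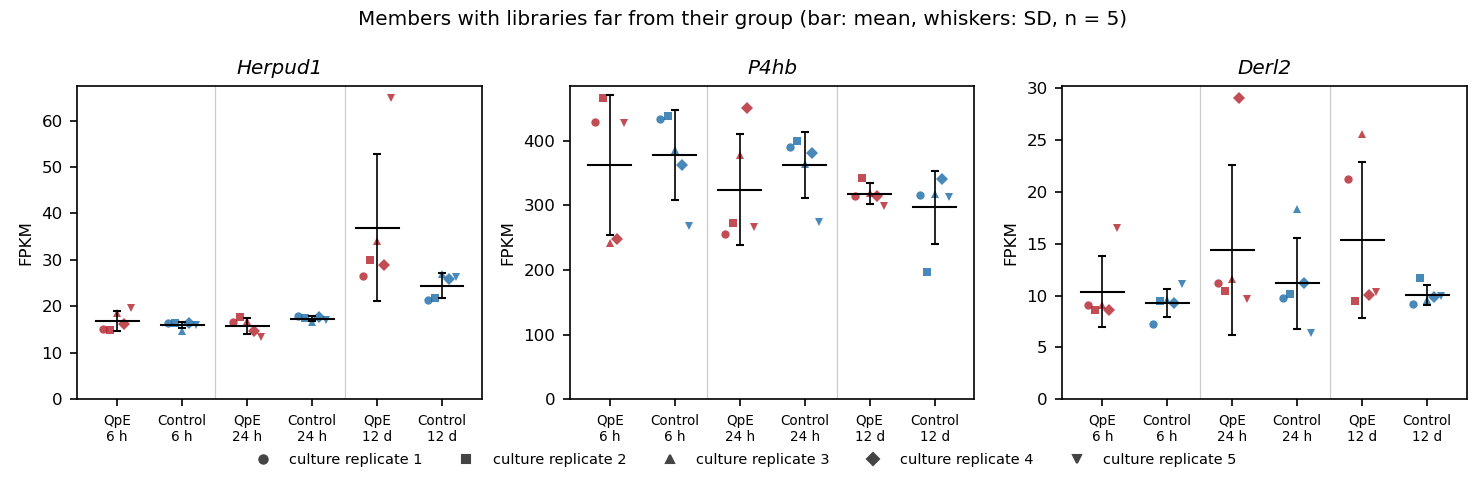
FPKM in each library of Herpud1, P4hb and Derl2 by treatment and time, with a symbol per culture replicate; horizontal bars are means and whiskers SD (n = 5). Single libraries set the spread, such as replicate 5 for Herpud1 with QpE at 12 days (64.9 FPKM) and replicate 4 for Derl2 with QpE at 24 h (29.1 FPKM).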

How the data were processed

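Poly(A) RNA of 30 cultures was sequenced as strand-specific paired reads of 75 bp, per the labels' protocols. The authors deposited 1 table of 150146 transcripts in FPKM, which are not counts. HISAT, HISAT2, StringTie and build GRCm38 are named in the submitters' processing notes, without versions or settings, which no source used here gives. In 10 libraries 11 deposited FPKM values lay just below 0 (lowest -7e-05) and were set to 0. The table has 0 value columns other than those of the 30 libraries. Transcripts were summed per gene, and 10567 of 16259 unnamed StringTie transcripts were joined to the only named gene of their locus. Deposited FPKM summed to between 413502 and 500489 per library over all transcripts. The depth estimate rests on the smallest steps between values of low single-exon transcripts, and no counting interval was formed.

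Genes with at least 1 FPKM in at least 5 libraries were tested with limma 3.58.1 (R 4.3.3) on log2(FPKM + 1) with a mean-variance trend, which understates changes of low genes. Each fit held the compared groups only, because the spread was larger in QpE cultures at 12 days (median SD 0.281 on that scale, against 0.158 to 0.215 in the other groups). The adjusted p (Benjamini-Hochberg) covers all 14626 genes, and ± after a log2 difference is its SE. The fits were tested on simulated data. Members and lists were chosen with earlier results of these data known. Values in every library were given for called members, up to the 12 of largest absolute difference in a comparison, and for others picked after their values were seen, and up to 3 called genes were named per list.

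Same-numbered QpE and control libraries deviated together at 12 days (r of deviations from group means 0.157 to 0.38 in all 5 pairs). By this r the same-numbered control was the best match of a QpE library in only 3 of 5 cases there. It was so in 4 of 5 at 6 h and 3 of 5 at 24 h. The pairing is thus partial, and the block fit at 12 days is given beside the calls it changes. This pairing comes from the data, not the labels. At 6 h and 24 h some correlations were under 0.1. Alternatives covered the libraries in the fit, the block, pseudocount, filter, scaling, summing of transcripts, weights per group, 2 sets of cultures and leaving out each library.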

Additional observations from a re-analysis of the deposited data

Results flagged for a closer look

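In 9 of 228 groups of 5 cultures a single library stood apart by more than 0.71 of the group's range on the log2(FPKM + 1) scale. That is the 95% critical value of Dixon's test, and chance alone flags about 1 in 20 such groups. Values below are in FPKM, on which the gap can differ. Replicate 5 was low with QpE at 24 h for Dnajb9 (14.5 FPKM, the others 19.1 to 20.9) and for Xbp1 (34.7 FPKM, the others 41.6 to 43.1). P4hb was low in replicate 5 of the 24 h controls (275 FPKM, the others 365 to 400.0) and in replicate 2 of the 12 day controls (197 FPKM, the others 313 to 341). Herpud1 was high in replicate 5 of QpE at 12 days (64.9 FPKM, the others 26.6 to 34.0) and low in replicate 3 of the 6 h controls (14.8 FPKM, the others 16.02 to 16.5). Sel1l was low in replicate 5 of the 12 day controls (25.6 FPKM, the others 31.0 to 33.3). Derl2 was high with QpE in replicate 5 at 6 h (16.5 FPKM, the others 8.58 to 9.09) and in replicate 4 at 24 h (29.1 FPKM, the others 9.66 to 11.6).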

How the results depend on the processing

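Of 4674 recomputed differences of single members 4508 stayed on their side of the threshold. These kept their direction or, where uncalled, changed it by less than 1 SE. Of the rest, 58 passed the threshold only under the alternative and 70 no longer passed. Another 35, uncalled, changed direction by 1 SE or more, and 3 called ones reversed. The causes were not tested. At 12 days, 13 members were higher and 2 lower with QpE in a fit of all 30 libraries, 8 and 2 with the replicate block, and 14 and 2 with both, a fit chosen after seeing the data. The number higher was 3 with the most abundant transcript. It was 1 within replicates 1, 2 and 5 and 2 within replicates 3 and 4, which have fewer cultures. Members lower numbered 1 with no filter, 2 with TPM scaling and 1 with weights per group. With TPM scaling the median difference was 0.065 at 12 days and -0.04 at 24 h. In controls at 24 h against 6 h, 2 were higher in the fit of all 30 libraries, and 3 were lower with named transcripts only and 3 with the most abundant one. In controls at 12 days against 24 h the median was -0.122 with a pseudocount of 0.1, -0.122 with TPM scaling, -0.032 with median-ratio scaling, -0.146 with named transcripts and -0.145 with the most abundant one, and 7 were lower with median-ratio scaling. For the difference of effects, 4 were higher in the fit of all 30 libraries, 1 with median-ratio scaling and 2 with weights per group. The share of all genes called is not given beside each of these counts, so nothing is drawn from them.

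Among called differences, those that reversed were of Atf6 and Os9 in controls at 12 days against 24 h. Atf6 was at -1.24 in named transcripts alone and in its most abundant transcript, and Os9 at 0.0192 in its most abundant transcript. Some uncalled differences also changed direction and are not listed. Leaving out 1 library at a time gave 4 to 6 members higher and 0 lower with QpE at 12 days, with medians of 0.133 to 0.178. Medians were then -0.046 to 0.015 at 6 h and -0.012 to 0.037 at 24 h. In controls the counts were 4 to 6 higher and 3 to 5 lower at 24 h against 6 h (medians 0.003 to 0.049), and 5 to 7 higher and 11 to 12 lower at 12 days against 24 h (medians -0.135 to -0.094). For the difference of effects they were 0 to 3 higher and 0 lower (medians 0.07 to 0.19). With the block, 0 members were called at 6 h and 24 h.

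Over all genes at 12 days the calls were 740.0 higher and 1049 lower, and ranged over the alternatives from 102 to 1966 higher and from 50 to 2239 lower. Leaving out 1 library there gave 330.0 to 659 higher (2.26% to 4.51% of genes, against 5.06%) and 473 to 1030.0 lower. In controls at 24 h against 6 h the alternatives gave 691 to 1677 of 14626 genes higher and 824 to 1892 lower. At 12 days against 24 h they gave 1072 to 2370 higher and 1541 to 3131 lower. For the difference of effects they gave 1 to 268 higher and 2 to 471 lower. The member counts above are not to be read without these. FPKM without counts leave the precision of low genes such as Ero1lb and Ern1 unknown, 5 cultures limit each group, and no deposited value separates spliced Xbp1 or tells cell number from RNA per cell.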

Other observations

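Transcripts of one gene did not all differ alike. Of the BiP transcripts, ENSMUST00000100171 averaged 336 FPKM in QpE cultures and 214 FPKM in controls at 12 days, while ENSMUST00000028222 averaged 128 FPKM in QpE cultures and 133 FPKM in controls. At the Atf6 locus the named transcript averaged 6.83 FPKM with QpE and 1.49 FPKM in controls, and the unnamed MSTRG.1387.3 averaged 4.92 FPKM with QpE and 5.26 FPKM in controls. The unnamed MSTRG.1387.1 averaged 0.683 FPKM with QpE and 2.29 FPKM in controls. These are means with no test of the difference between transcripts, and assignment of short reads to overlapping transcripts can vary between libraries.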
